A study of Mus musculus with 6 samples.

Results

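The genes of the cytosolic ribosome's proteins were followed through promoter-capture Micro-C of mouse embryonic stem cells. The members were the protein-coding genes of the mouse RefSeq annotation whose symbols have the form Rpl or Rps plus a number, with Rplp0, Rplp1, Rplp2 and Rpsa added. They came to 84 genes of 21896, of which 43 belong to the large subunit, 31 to the small subunit, 3 to the stalk and 7 are paralogs or -like genes. A bait, the promoter fragment that the capture pulls down, was taken as a member's where it met the gene body widened by 2 kb on either side. This gave 92 of 19083 baits, for 75 of the 84 genes. Baits are known here only from the contacts that the authors listed, so captured promoters without any listed contact are not counted. The choice goes by symbol, so Fau, whose product is a ribosomal protein fused to a ubiquitin-like protein, was counted with a list of translation genes instead.

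Ribosomal protein genes encode the structural parts of the small and large ribosomal subunits, which must be made in matched amounts and at high rates in dividing cells. They are scattered over the chromosomes, are read in nearly every cell type, and mostly begin transcription at a C inside a run of pyrimidines, the base of the 5′ terminal oligopyrimidine motif through which mTOR signalling sets their translation. They are also the parents of very many processed pseudogenes, copies of the spliced messenger RNA that were put back into the genome elsewhere.

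The cells were E14 embryonic stem cells, a wild-type male mouse line grown in serum and LIF and used at passages 18 to 26. Every group received esiRNA, a pool of short interfering RNAs, 48 h before collection. In Brg1KD it was directed against Smarca4, which encodes the ATPase of the esBAF remodeller, in Ino80KD against Ino80, the ATPase of the INO80 remodeller, and in Control against EGFP, which wild-type cells lack. Each group had 2 libraries, and the study asked how the 2 remodellers bear on promoter contacts. Replicate 1 of all groups was batch 1, replicate 2 of both depletions batch 3 and replicate 2 of Control batch 2. The labels name no separate cultures, so p-values measure the spread between libraries, which may be technical. RNA was not measured here, so neither the extent of the knockdown nor the cell type could be checked against its markers.

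A loop is a listed pair of a bait and another end, either another bait or a bin of at most about 20 kb, with the authors' interaction score of 5 or more. The lists held 12313 and 13032 same-chromosome loops in Brg1KD, 14752 and 14172 in Ino80KD, and 15385 and 14451 in Control. Brg1KD replicate 1 stood apart with 5254 interchromosomal loops, against 3501 to 3859 in the other libraries. The number of reads behind each list is unknown, and a contact missing from a list had a score below that minimum, which leaves its absence unshown.

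Promoters of the members with most loops are printed here because the baits capture these sequences. Each runs from 60 bases before the annotated start of transcription to 12 bases from it, on the gene's own strand, from RefSeq (GRCm38.p6). Capitals mark a C followed by at least 4 pyrimidines that begins at or within 5 bases of the start.
Rpl18 (chr7:45718011-45718082, plus strand): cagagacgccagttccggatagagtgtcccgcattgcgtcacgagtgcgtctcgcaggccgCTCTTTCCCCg
Rpl28 (chr7:4792905-4792976, plus strand): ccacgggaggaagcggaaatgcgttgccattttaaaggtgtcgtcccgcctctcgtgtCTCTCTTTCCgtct
Rps9 (chr7:3703981-3704052, plus strand): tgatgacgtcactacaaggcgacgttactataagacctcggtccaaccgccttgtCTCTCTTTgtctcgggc
Rps28 (chr17:33824551-33824622, minus strand): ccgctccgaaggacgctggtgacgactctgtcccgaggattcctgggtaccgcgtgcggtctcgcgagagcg
Rpl41 (chr10:128549157-128549228, minus strand): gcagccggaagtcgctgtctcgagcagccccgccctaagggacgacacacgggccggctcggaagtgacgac
Rpl36a (chrX:134585594-134585665, plus strand): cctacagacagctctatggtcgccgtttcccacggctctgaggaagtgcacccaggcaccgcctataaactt
Rpl3l (chr17:24727766-24727837, plus strand): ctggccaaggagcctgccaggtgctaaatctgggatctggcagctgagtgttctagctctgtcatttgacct

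Rpl18, Rpl28 and Rps9 start at a pyrimidine run of 10, 10 and 8 bases, and in the other 4 no such run lies at the annotated start. Among them is Rpl3l, the striated muscle paralog of Rpl3. Over the whole promoter table, which holds windows of 300 bases for 64 of the 84 members, 42.1% of 76 member windows had such a start. The share was 18.3% of all 32851 windows, 22.7% at genes of the mitochondrial ribosome and 28.9% at genes of oxidative phosphorylation. The letters CCGGAAG, read on both strands as the motif of ETS factors, were in 35.5% of member windows and 8.86% of all windows. ATGGCGG, for YY1, was in 18.4% and 4.05%, and GGGCGG, for SP factors, in 59.2% and 35.7%. TATAAA was in 10.5% and 13.6%. The mitochondrial ribosomal protein genes had ETS letters at a share like that of the members, 34.7%, and YY1 letters at 17.3%. Motifs can overlap each other, and a match is a string of letters and not a bound site.

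Of the 92 baits, 75 held a start or an end of their member, 7 lay inside or overlapped it, and 10 lay only in the 2 kb window. Another protein-coding gene's start lay on 30 of the baits. The bait counted for Rpl23a, whose protein sits at the ribosome's exit tunnel, is one of these, since it holds the starts of Nek8 and Tlcd1 and lies beside Rpl23a. Contacts of such a bait cannot be given to 1 of its genes. For 9 members no bait was listed, namely Rpl14, Rpl17, Rpl27a, Rpl32l, Rpl35, Rps21, Rps27l, Rps3 and Rps3a1.

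Same-chromosome loops were unevenly spread over the family. They were listed at 60 of the 84 genes, and 10 genes held 55.2% of the 337 listings summed over the libraries. Rpl18, a large subunit gene, had 1 and 3 loops in Brg1KD, 4 and 4 in Ino80KD, and 5 and 6 in Control. Summed over the libraries, Rpl23a and Rpl3l had 21 listings each, Rps28 18, Rpl28 17, Rpl41 14, and Rpl36a and Rps9 12 each. Most of the family had very few: 27 genes had 1 or 2 listings, and 19 genes were listed in 1 library. Loops in all 6 libraries were seen at 9 genes, among them Rpl18, Rpl23a, Rpl36a, Rpl3l, Rpl41, Rps18 and Rps28.

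**Figure D1:**
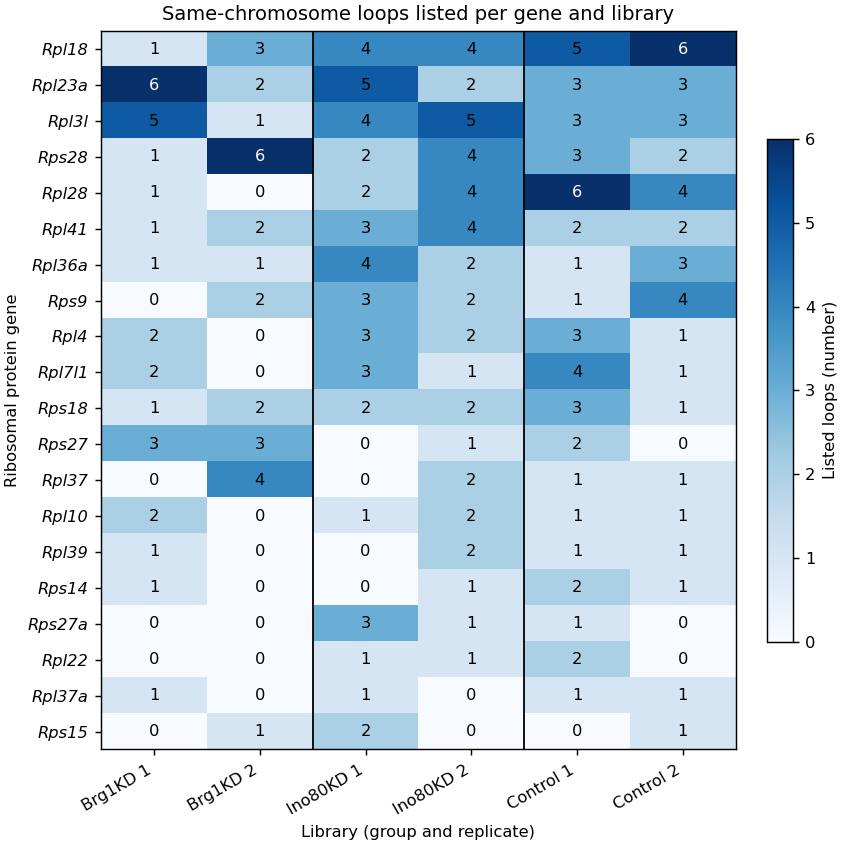
Number of listed same-chromosome loops (cell text and shade) at 20 ribosomal protein genes with 4 or more listings, by library. The highest cells hold 6 loops (Rpl23a in Brg1KD replicate 1, Rps28 in Brg1KD replicate 2, Rpl28 in Control replicate 1 and Rpl18 in Control replicate 2), and Rps28 has 1 and 6 loops in the Brg1KD replicates.

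A further 15 genes had a bait with interchromosomal loops and no same-chromosome loop in any list. Baits are known from their listed contacts, so a bait without a same-chromosome loop is seen only through interchromosomal ones. These were Rpl10l, Rpl11, Rpl15, Rpl23, Rpl3, Rpl30, Rpl32, Rpl35a, Rpl39l, Rpl9, Rplp1, Rps10, Rps24, Rps4x and Rpsa. The stalk genes, whose products recruit translation factors to the ribosome, had 3 listings between them, 2 at Rplp0 and 1 at Rplp2. By position, the 22 members on chromosomes 7 and 17 held 47.8% of all listings.

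Few of the members' loops recurred in every library. Of 219 different same-chromosome loops of the members, 158 were in 1 library and 3 in all 6 with identical ends, or 1.37% against 3.13% of the 49712 loops of all other baits. At Rps18, a small subunit gene that starts next to Vps52 of the GARP vesicle-tethering complex, the recurring loop ran 14.3 kb from the shared bait (chr17:33954692-33956783) to the bin at 33960001 to 33980000 in Vps52. Its scores were 7.67 and 5.84 in Brg1KD, 6.95 and 10.88 in Ino80KD, and 10.16 and 9.01 in Control. Each score belongs to its own library's list, so they are given as listed and not compared. At Rpl18 the recurring loop joined its 2 baits, which also hold the starts of Sphk2, a sphingosine kinase gene, and Fam83e, over 4.12 kb. At the Nek8 and Tlcd1 bait beside Rpl23a it ran 168 kb to the bin at 78000001 to 78020000 on chromosome 11, in Phf12, which encodes a PHD finger protein.

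Further loops came back in all libraries but 1. A bait within 2 kb of Rps28 that holds no gene start met a bin in Myo1f, a myosin gene, over 232 kb in each library except Brg1KD replicate 1. The bait with the starts of Rps28 and Ndufa7 met the same bin in 4 libraries. The Snapc5 bait at the far end of Rpl4 met a bin 90.9 kb away with no gene in it in each except Brg1KD replicate 2. When ends within 5 kb of each other were taken as the same, 9 contacts at 4 members, Rpl18, Rpl23a and Rps18 among them, were in all 6 libraries.

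The spans of the 219 loops had a median of 233 kb, with quartiles at 123 and 442 kb. Under 50 kb there were 18 and over 1000 kb there were 25. Rps9, a small subunit gene, reached furthest among the genes with most loops that recurred: its bait met a bin in Eps8l1 and Ppp1r12c 786 kb away in 3 libraries, Brg1KD replicate 2, Ino80KD replicate 1 and Control replicate 2. At Rpl36a on the X chromosome, the listings were mainly at the bait that holds the start of Btk, a tyrosine kinase gene of B cells. That bait met a bin without a gene 327 kb away in 4 libraries and the next bin, 347 kb away, in 3. Rpl3l met a bin in Hagh, a glyoxalase gene, over 141 kb in 3 libraries.

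Rpl41 had 14 listings and little recurrence, with 12 different loops of which 2 were in more than 1 library. Its loop to a bin in Esyt1 over 38.7 kb was in both Ino80KD libraries and no other, and its loop to a bin in Cs, the citrate synthase gene, over 199 kb was in Ino80KD replicate 2 and Control replicate 2. The Rps27a bait also holds the start of Clhc1. It met the bin of Rtn4 and Eml6, 202 kb away, in both Ino80KD libraries and no other. Rpl7l1 met several bins in Bicral, and its most frequent loop, over 87.2 kb, was in replicate 1 of Brg1KD, Ino80KD and Control and in no replicate 2. Those 3 libraries are batch 1.

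Members did not meet each other in these lists. No loop joined baits of 2 different members in any library, although 9 pairs of members lie within 1000 kb of each other. Among these pairs, Rps2 and Rpl3l are 5.90 kb apart, Rpl41 and Rps26 75.4 kb, and Rps28 and Rps18 127 kb. All 8 listings between 2 member baits joined baits of the same gene, at Rpl18 or Rps28. The closest to a contact between members was a Control replicate 1 loop of the Rps18 bait to a bin in Ndufa7, the gene that shares its bait with Rps28, over 123 kb.

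Ribosomal protein baits were set against all other baits within each library, with an exact two-sided sign-flip permutation test over the 6 libraries, whose smallest possible p is 0.031. The libraries share baits and cell line, and p-values were also adjusted over the 7 measures compared. A member bait had 0.625 ± 0.109 loops and another bait 0.765 ± 0.0665 (SD over 6 libraries). The member value was lower in 5 of 6 libraries, with Ino80KD replicate 2 the exception (exact p = 0.0625, adjusted 0.0875). A loop was listed at 37.7% ± 4.84 of member baits and 42.9% ± 2.37 of other baits, again lower in 5 of 6 libraries (exact p = 0.0625, adjusted 0.0875). The median span was 196 ± 72.6 kb at member baits and 249 ± 19.4 kb at other baits, lower in 5 of 6 libraries, with Brg1KD replicate 2 the exception at 325 against 259 kb (exact p = 0.125, adjusted 0.146). None of these 3 differences passed the test. A bait is counted if it has any listed contact, also an interchromosomal one, and 74 of the 92 member baits had a same-chromosome loop. Baits with interchromosomal loops only lower the loops per bait and the share of baits with a loop. Their part in these differences was not tested.

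The partners of the loops were compared in the same way. Another bait was the far end of 17.6% ± 5.06 of same-chromosome loop ends at member baits and 7.69% ± 1.83 at other baits. The member share was higher in 6 of 6 libraries (exact p = 0.031, adjusted 0.0729), so it passed the test before adjustment and missed 0.05 after it. Member baits also lay among more genes, with a median of 13.5 protein-coding genes within 250 kb against 9 for other baits, and the part of gene density in this difference was not tested. Of the member listings between 2 baits, 8 joined 2 baits of the same gene, at Rpl18 or Rps28, and each of these counts at both ends. The rest led to baits outside the family, such as Rpl18 to Spaca4 in 4 libraries, Rpl3l to Ndufb10, a complex I subunit gene, in 3, Rpl28 to the Fiz1 and Zfp524 bait in 2 and Rpl39 to Ube2a, a ubiquitin-conjugating enzyme gene, in 2.

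Interchromosomal loops made up 46.9% ± 3.55 of the loop ends at member baits and 22.8% ± 4.35 at other baits. In the libraries the member share was 46.8% and 50% in Brg1KD, 50.8% and 43.8% in Ino80KD, and 41.7% and 48.1% in Control. The share at other baits was 31.5% and 22.3%, 21.4% and 20.6%, and 19.8% and 21.4% in the same order of libraries. The member share was higher in all 6, by 24.0 ± 5.11 percentage points (exact p = 0.031, adjusted 0.0729). Other lists had high shares too. Ribosome biogenesis genes averaged 67.6%, translation elongation and related genes 69.0%, mitochondrial ribosomal protein genes 57.7% and oxidative phosphorylation genes 31.3%, and nothing was tested between lists.

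**Figure D2:**
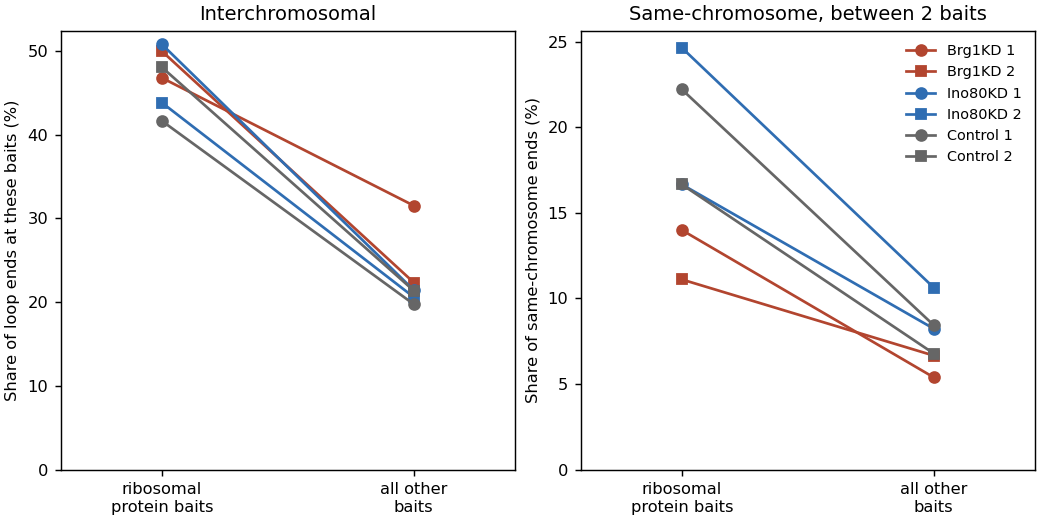
Share of loop ends that were interchromosomal (left) and share of same-chromosome ends whose partner was another bait (right), in percent, at ribosomal protein baits and at all other baits; each line is 1 library. Every line falls towards the other baits in both panels, and Brg1KD replicate 1 has the highest interchromosomal share at other baits, 31.5%.

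The interchromosomal loops of the members also carried higher scores. Within a list, their median score was 12.4 ± 1.88 at member baits and 10.2 ± 0.649 at other baits (mean of 6 library medians, higher in 6 of 6, exact p = 0.031, adjusted 0.0729). The members' same-chromosome loops had a median of 5.90 ± 0.201 against 5.94 ± 0.0383 (exact p = 0.625, adjusted 0.625). The highest same-chromosome score was 15.76, for a Control replicate 1 loop of Rpl41 that spans 85099 kb to a bin in Pdss2. The highest interchromosomal score was 131.92, in the same library, for Rpl13a.

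**Figure D3:**
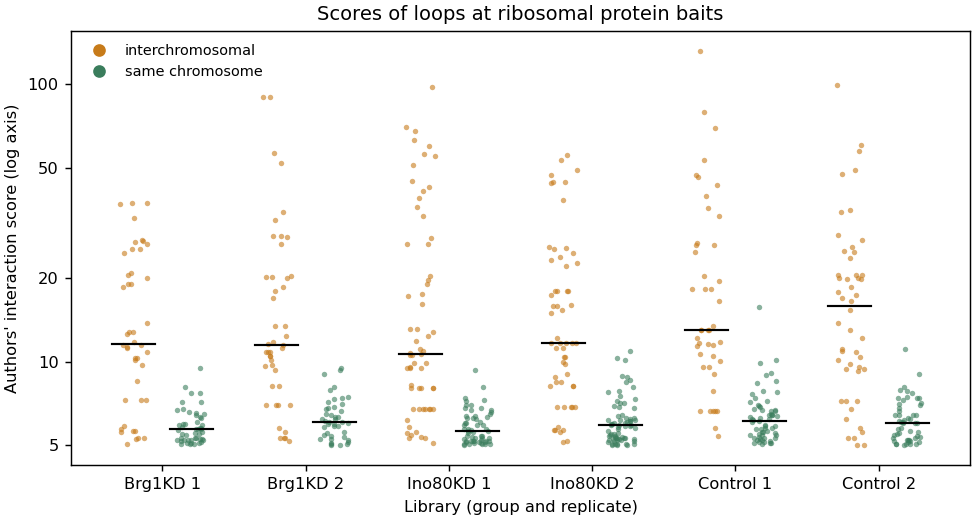
The authors' interaction score (log axis) of each listed interchromosomal and same-chromosome loop at ribosomal protein baits, by library, with the median as a bar. Interchromosomal medians lie between 10.69 and 15.915 and same-chromosome medians between 5.63 and 6.105.

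There were 163 different interchromosomal loops, at 54 of the 84 genes, and 9 of them were in all 6 libraries. Rpl13a met a bin on chromosome 16 (30400001 to 30420000) with scores of 33.03 and 89.91 in Brg1KD, 38.80 and 44.30 in Ino80KD, and 131.92 and 9.42 in Control. Rps6, whose product is phosphorylated by S6 kinase, met a bin on chromosome 17 (92080001 to 92100000), with scores of 37.32 and 89.91 in Brg1KD, 44.70 and 38.31 in Ino80KD, and 53.15 and 99.77 in Control. Neither bin holds an annotated protein-coding gene or pseudogene. The other 7 were loops of Rps10, Rplp1, Rpl37, Rps27a and Rps15a with 1 each and of Rpl18 with 2. By listings, Rpl41 had 27 interchromosomal loops over the libraries, Rpl18 26 and Rps6 16.

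Several of the regions met on other chromosomes hold a pseudogene named after the baited gene. Rps10 met the bin of Rps10-ps2 on chromosome 16 in all 6 libraries. Rpl18 met Rpl18-ps2 on chromosome 6 and Rps15a met Rps15a-ps6 on chromosome 11, each also in all 6. In all, 25 of the 163 regions held a pseudogene named after the baited gene, among them Rps27-ps2 in 4 libraries and Rpl36-ps2 and Rplp2-ps1 in 3. Any annotated pseudogene, by whatever name, was in 40.5% of the 163 regions and in 12.6% of the 15613 interchromosomal far ends of other baits. Among loops in 3 or more libraries these shares were 55.9% of 34 and 24.3% of 1886. The far ends of the members' same-chromosome loops held one in 7.31% of 219 cases. With far ends that hold a pseudogene left out, the member share of interchromosomal ends exceeded that of other baits by 12.2 percentage points (exact sign-flip p = 0.031). Far ends beside a pseudogene stayed in, such as the region next to Rpl18-ps2 that Rpl18 met in 3 libraries. This removal therefore cannot show how much of the excess is free of pseudogenes. The likeness of these regions to the baits' sequences was not tested.

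Between the groups, the Brg1KD lists held fewer member loops and fewer loops in all than the Control lists. Brg1KD had 49 and 43 member loops and Control 62 and 53, which came to 3.98 (95% Wilson interval 3.01 to 5.26) and 3.30 (2.45 to 4.44) per 1000 same-chromosome loops in Brg1KD against 4.03 (3.15 to 5.16) and 3.67 (2.81 to 4.79) in Control. The intervals cover counting error only. The groups overlapped per 1000, with a ratio of 0.946 and an exact two-sided permutation p of 0.667. With 2 libraries against 2 the smallest p is 0.333, so no comparison of groups could pass 0.05, and the p-values adjusted over the 18 group comparisons were 0.75 or more.

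Ino80KD had 59 and 71 member loops, or 4.00 (3.10 to 5.16) and 5.01 (3.97 to 6.31) per 1000. The ratio to Control was 1.17 (exact permutation p = 0.667) and within batch 1 it was 0.992. The ratio of Ino80KD to Brg1KD was 1.24, with both Ino80KD libraries above both Brg1KD libraries (exact permutation p = 0.333) by a narrow gap in batch 1, where the ratio was 1.01. Ino80KD replicate 1 lay between the Control libraries and replicate 2 above both.

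Loops from a member to another bait were fewest in Brg1KD. There were 6 and 3 in Brg1KD, 9 and 16 in Ino80KD, and 13 and 8 in Control. Brg1KD and Control did not overlap, with a ratio of 0.429, and 0.462 within batch 1 (exact permutation p = 0.333). Other baits differed in the same direction: the share of their same-chromosome ends that met another bait was 5.39% and 6.66% in Brg1KD against 8.44% and 6.78% in Control, also without overlap, beside 14% and 11.1% in Brg1KD against 22.2% and 16.7% in Control at member baits. Ino80KD lay on both sides of Control, with a ratio of 1.19 and 0.692 within batch 1 (exact permutation p = 0.667). Rpl18 accounted for part of the difference: its loop to the Spaca4 bait over 6.55 kb was listed in both Ino80KD and both Control libraries and in neither Brg1KD library. Interchromosomal loops of the members numbered 44 and 45 in Brg1KD, 62 and 57 in Ino80KD and 45 and 50 in Control, with a ratio of 1.25 for Ino80KD against Control and 1.38 within batch 1 (exact permutation p = 0.333). Over all baits, the lists held 3859 and 3501 interchromosomal loops in Ino80KD and 3660 and 3769 in Control. As a share of the members' loop ends, Ino80KD and Control overlapped, with a ratio of 1.05 (exact permutation p = 0.667).

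**Figure D4:**
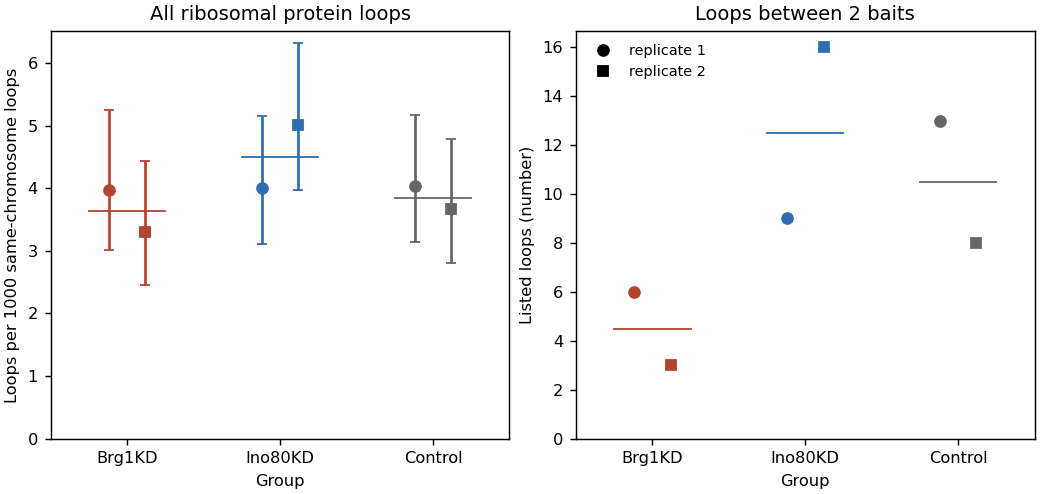
Ribosomal protein loops per 1000 same-chromosome loops with 95% Wilson intervals (left) and number of ribosomal protein loops between 2 baits (right) in each library, with the group mean as a line. The intervals overlap between all groups on the left, and on the right the Brg1KD libraries, at 6 and 3, lie below all others.

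Single genes differed in both directions after Brg1 depletion. Rpl28, a large subunit gene, had the largest difference in listed loops, with 1 and 0 loops in Brg1KD against 6 and 4 in Control. Those of its loops that were in more than 1 library led to Hspbp1, the Brsk1 and Tmem150b bin, Ptprh and the Fiz1 bait, 83.2 to 239 kb away. Rpl18 had 1 and 3 against 5 and 6, and Rpl24 and Rpl31 had none against 1 in each Control library. Among the genes higher in both Brg1KD libraries were Rps27 with 3 and 3 against 2 and 0 and Rpl27 with 1 and 1 against none. The 6 Rps27 listings in Brg1KD lay in or around Gatad2b, which encodes a subunit of the NuRD complex, 76.3 to 196 kb away. Their bait also holds the start of Rab13.

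Such separations were about as frequent elsewhere. By bait, numbers did not overlap between Brg1KD and Control at 5 of 61 member baits in the lower direction and 3 in the higher, or 8.20% and 4.92%, beside 8.95% and 4.64% of all baits with a loop. For Ino80KD against Control they were 2 lower and 4 higher of 62, or 3.23% and 6.45%, beside 7.06% and 6.12% of all baits. By gene, Rpl3l had 4 and 5 loops in Ino80KD against 3 and 3 in Control, Rpl41 3 and 4 against 2 and 2, and Rps25 1 and 1 against none. Rpl18 was lower with 4 and 4 against 5 and 6, as was Rpl24 with none against 1 and 1. For Ino80KD against Brg1KD, 2 baits were lower and 9 higher of 71, or 2.82% and 12.7%, beside 5.05% and 9.05% of all baits. The genes furthest apart there were Rpl28 with 2 and 4 in Ino80KD against 1 and 0 in Brg1KD, and Rps27 with 0 and 1 in Ino80KD against 3 and 3 in Brg1KD.

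The authors' deposited tables give, for pairs of a bait and a merged region that it contacts, a log2 fold change of contact signal with its error. No member passed adjustment in either of the authors' deposited tables, where the smallest adjusted p was 0.9999 for Brg1KD and 0.9998 for Ino80KD, and 0 of all regions passed. No header gives the direction of the folds. In the authors' deposited table for Brg1KD, 81.5% of regions looped in both Brg1KD libraries and no Control library were above 0, against 19.5% of regions looped in both Control libraries and no Brg1KD library. The authors' deposited table for Ino80KD gave 83.9% and 18.9%, and values above 0 were read as higher after depletion.

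For Brg1KD the authors' deposited table held 113 member regions at 44 genes, with a median log2 fold change of -0.07 beside -0.01 over all 33243 regions, and 65 of the 113 below 0. At an unadjusted p under 0.05, 5 of the 113 member regions of the authors' deposited table were lower and 2 higher. Over all 33243 regions of the authors' deposited table, 275 (0.827%) were lower and 124 (0.373%) higher. The regions share baits and contacts, so these are not independent. The lowest p in the authors' deposited table belonged to a bait within 2 kb of Rps28 that holds no gene start. Its region, the stretch over Rps28, Ndufa7, Cd320 and Kifc1, had a log2 fold change of -0.51 ± 0.22 in the authors' deposited table (SE, p = 0.0231, adjusted 0.9999). A second lower region in the authors' deposited table ran from the Rps18 bait over Vps52, H2-K1 and Ring1, a polycomb gene, at -0.43 ± 0.20 (p = 0.031).

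The authors' deposited table also had 2 overlapping regions from Rpl7l1, a paralog of Rpl7, over Bicral, which encodes a subunit of a BAF-type remodeller, both at -0.54 and with errors of 0.25 and 0.26 (p = 0.0324 and 0.0339). The Rps14 region over Synpo and Ndst1 stood at -0.42 ± 0.20 in the authors' deposited table (p = 0.0370). Higher in the authors' deposited table were the Rpl12 contact with Ralgps1 and Zbtb34, at 0.58 ± 0.28 (p = 0.0414), and the Rps27 contact with the Gatad2b region, at 0.39 ± 0.19 (p = 0.0430). The Rpl12 bait also holds the start of Lrsam1 and the Rps27 bait that of Rab13. The Rps27 bait is thus higher in both the lists and the authors' deposited table, which come from the same libraries.

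Averaged over its regions in the authors' deposited table with inverse squared errors as weights, Rps27 had a log2 fold change of 0.32 ± 0.09 for Brg1KD, Rpl4 -0.41 ± 0.17 and Rpl7l1 -0.46 ± 0.13. These errors take regions as independent and are therefore too small. Rpl28, with fewer listed loops in Brg1KD, had a mean of 0.05 ± 0.16 in the authors' deposited table, on the other side of 0 from its loop numbers. Rpl18 had -0.17 ± 0.19 in the authors' deposited table, all from the bait that holds a start of Sphk2 and not that of Rpl18. Of the 44 genes, 28 had a mean below 0 in the authors' deposited table.

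For Ino80KD the authors' deposited table held 127 member regions at 48 genes, with a median of 0.10 beside 0.00 over all 34774 regions, and 82 of the 127 above 0. At an unadjusted p under 0.05, 0 of the 127 member regions of the authors' deposited table were lower and 2 higher. Over all 34774 regions of the authors' deposited table, 133 (0.382%) were lower and 317 (0.912%) higher. From the Rpl41 bait, which also holds the start of Zc3h10, the stretch over Smarcc2, a BAF subunit gene, with Myl6, Myl6b and Esyt1 stood at 0.49 ± 0.20 in the authors' deposited table (p = 0.0163, adjusted 0.9998). The bait of Rps27a, whose product is ubiquitin fused to a small subunit protein, also holds the start of Clhc1. From this bait the stretch over Rtn4 and Eml6 stood at 0.47 ± 0.21 in the authors' deposited table (p = 0.0229). In the lists, Rps27a had 3 and 1 loops in Ino80KD, 0 and 0 in Brg1KD and 1 and 0 in Control.

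The gene means for Ino80KD in the authors' deposited table were 0.41 ± 0.14 at Rps27a, 0.33 ± 0.16 at Rpl18 and 0.21 ± 0.11 at Rpl41, and 14 of 48 genes were below 0. All Rpl18 regions there came from the bait that holds a start of Sphk2 and not that of Rpl18. The Rpl18 mean lay on the other side of 0 from its loop numbers, 4 and 4 in Ino80KD against 5 and 6 in Control. Rpl7l1 was at -0.15 ± 0.10 and Rps27 at -0.05 ± 0.12 in the authors' deposited table. Both comparisons use the same Control libraries, so a high or low Control value moves them together.

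**Figure D5:**
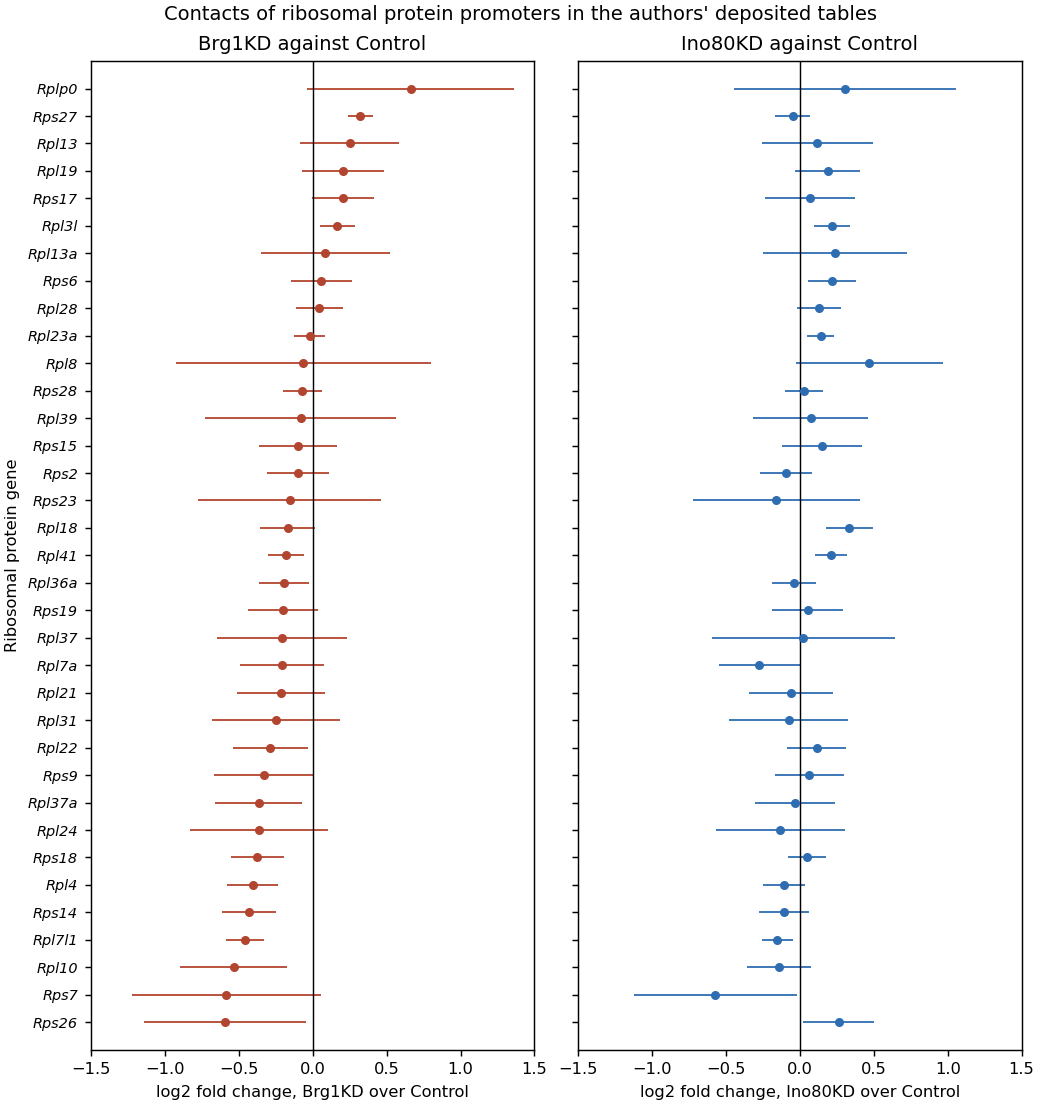
Mean log2 fold change of contact signal per ribosomal protein gene, weighted over its regions in the authors' deposited tables, for Brg1KD over Control (left) and Ino80KD over Control (right), at 35 of the genes found in both (the others are not reported here); bars are ± 1 SE with regions taken as independent. On the left 26 of the 35 drawn lie below 0 and on the right 21 lie above 0, and most bars cross 0.

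Medians of related gene lists lay in the same range. In the authors' deposited table for Brg1KD the median was -0.06 over 58 regions of large subunit genes and -0.12 over 42 of small subunit genes, beside -0.15 over 39 regions of translation elongation and related genes, -0.10 over 28 of ribosome biogenesis genes, -0.04 over 116 of mitochondrial ribosomal protein genes and -0.02 over 209 of oxidative phosphorylation genes. In the authors' deposited table for Ino80KD these medians were 0.11, 0.08, 0.10, 0.05, 0.00 and 0.03 in the same order of lists. Among the mitochondrial ribosomal protein genes 8 regions of the authors' deposited table were lower in Brg1KD at an unadjusted p under 0.05 and 0 higher. Nothing was tested between lists.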

How the data were processed

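Promoter-capture Micro-C of 6 libraries in 3 groups was used. Per the labels' protocols, chromatin was fixed, cut with micrococcal nuclease, ligated and captured at promoters. The submitters' processing notes name mm10 and bedtools, and which caller made the lists is not stated in them. The authors deposited a loop list per library with an interaction score, whose minimum in the files was 5. The authors also deposited 2 tables with a mean normalized signal, a log2 fold change, its error, a p-value and an adjusted p-value. Lists joined per group were not used here.

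Members were matched to RefSeq genes of GRCm38.p6, whose coordinates are those of mm10. Loops were counted by identical ends. Python 3.11.15, numpy 2.4.6, pandas 2.3.3, scipy 1.17.1 and matplotlib 3.10.9 were used, and counting and tests were tested on simulated lists. Exact permutation tests, two-sided, were used between groups and exact sign-flip tests between members and other baits; p-values were adjusted by Benjamini-Hochberg. Named genes are the 10 with most loops, up to 5 per direction whose numbers do not overlap between groups or whose deposited p is under 0.05, and those with loops in every library or none; some of these are not reported here. The interchromosomal comparison was added after the data were seen. Members and lists were chosen with earlier results of these data known.

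Same-numbered libraries of Ino80KD and Brg1KD share a batch per the labels, while for Control only replicate 1 does. The correlation of same-numbered libraries' deviations over 19083 baits was -0.00209 for Ino80KD and Brg1KD, 0.0488 for Brg1KD and Control and 0.00208 for Ino80KD and Control.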

Additional observations from a re-analysis of the deposited data

How the results depend on the processing

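The member loops per 1000 of Brg1KD against Control ranged from 0.857 to 1.03 when 1 library was left out, above 1 without Brg1KD replicate 2, and those of Ino80KD against Control from 1.04 to 1.302, against 0.992 within batch 1. Ino80KD against Brg1KD ranged from 1.10 to 1.38. For loops between 2 baits the ranges were 0.286 to 0.571 for Brg1KD against Control, 2.00 to 4.17 for Ino80KD against Brg1KD, and 0.857 to 1.56 for Ino80KD against Control, where the direction turned without Ino80KD replicate 2 (0.857) and without Control replicate 2 (0.962). With the replicate number as a block, the ratios of loops per 1000 were 0.943, 1.16 and 1.24 in the order Brg1KD against Control, Ino80KD against Control and Ino80KD against Brg1KD, and those of loops between 2 baits 0.416, 1.18 and 2.83; a block of 2 pairs cannot go below an exact permutation p of 0.5, and it turned no direction.

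Against other baits, loops per bait differed by -0.188 without the 2 kb window (exact p = 0.031), where the value with it was -0.140, and by -0.170 to -0.125 with 1 library left out. The median span differed by -76.7 to -41.1 kb. The share between 2 baits differed by 9.03 to 10.9 points and the interchromosomal share by 23.0 to 25.8 points, each with exact p = 0.0625, the smallest that 5 libraries allow. Loops in every library numbered 9 when ends within 5 kb were joined and 3 otherwise. At an unadjusted p under 0.01 no member region of the authors' deposited tables remained. Raising the score minimum to 10 left 0 and 0 member loops in Brg1KD, 0 and 3 in Ino80KD and 2 and 1 in Control, so most measures had no value there. The causes were not tested, and the depth of the libraries is unknown.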
